A study of Mus musculus with 19 samples.

Results

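The peaks described here lie in or near 6 genes of leukocyte adhesion and matrix binding, Vcam1, Icam1, Cd44, Itgb1, Itgav and Itga5. A peak was taken as a member if its centre lay in the gene body or within 30 kb of either end in RefSeq coordinates of assembly GRCm38. The rule gave 53 of the 90154 peaks of an ATAC-seq table, 5 for Vcam1, 6 for Icam1, 9 for Cd44, 4 for Itgb1, 13 for Itgav and 16 for Itga5. All 53 windows were 500 bp long, so their values can be set side by side. For 38 of them the gene named was also the nearest protein-coding gene.

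ATAC-seq marks open chromatin by letting a transposase cut accessible DNA. The 19 libraries came from C57BL/6J wild type mice at embryonic day 14. Neural stem cells of the ventricular zone were grown as floating neurospheres (NSPs) in medium with EGF (group NSP, 3 libraries). The other cells were moved to plates coated with poly-L-ornithine and to medium with 10% fetal bovine serum, in which they differentiated towards astrocytes. They were collected after 24 h (3 libraries), 72 h (3) or 1 week (4), and cultures kept with TNF at 50 ng/ml were collected after 24 h (3) and 72 h (3). No group at 1 week received TNF. The study's methods describe cells isolated from single brains and data from independent biological experiments unless stated otherwise, but neither they nor the labels tie a library to an animal or culture, so p-values measure the spread between these libraries, part of which may be technical.

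VCAM1 and ICAM1 are adhesion molecules of the immunoglobulin superfamily that bind integrins on leukocytes, and both genes are classic targets of TNF through NF-κB in vascular endothelium and in astrocytes. CD44 is the main cell surface receptor for hyaluronan, a matrix sugar of the brain, and is carried by astrocytes and their precursors. Integrins are pairs of an alpha and a beta subunit. The beta subunit encoded by Itgb1 pairs with that encoded by Itga5 to bind fibronectin, and the subunit encoded by Itgav binds vitronectin and the latent form of TGF-β.

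Of these genes, 4 had a peak centred within 1 kb of the RefSeq transcription start, Cd44, Itgb1, Itgav and Itga5. For Vcam1 no strand was used, and peak 5 lay 237 bp inside the upper end of the gene. No listed peak lay in the body of Icam1 (chr9:21015940-21028814, plus strand) or within 1 kb of its start. Below are the 250 bases before the start of 4 genes, from RefSeq promoter sequences of GRCm38.p6, 5′ to 3′ on the strand of the gene. They are shown because the share of this stretch that a peak covered differed between the genes, and capitals mark bases inside a listed peak.
Icam1, chr9:21015690-21015939, plus strand: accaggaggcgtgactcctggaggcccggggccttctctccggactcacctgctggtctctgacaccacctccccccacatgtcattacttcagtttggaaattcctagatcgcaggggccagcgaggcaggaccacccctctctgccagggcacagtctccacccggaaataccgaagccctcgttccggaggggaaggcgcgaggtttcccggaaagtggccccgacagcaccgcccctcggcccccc
Cd44, chr2:102901666-102901915, minus strand: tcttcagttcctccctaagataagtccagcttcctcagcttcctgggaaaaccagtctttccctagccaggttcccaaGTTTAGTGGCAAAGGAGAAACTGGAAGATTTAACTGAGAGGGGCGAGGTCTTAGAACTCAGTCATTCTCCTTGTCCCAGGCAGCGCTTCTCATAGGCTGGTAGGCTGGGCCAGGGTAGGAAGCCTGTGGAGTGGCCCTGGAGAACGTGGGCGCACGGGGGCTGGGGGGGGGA
Itgb1, chr8:128685404-128685653, plus strand: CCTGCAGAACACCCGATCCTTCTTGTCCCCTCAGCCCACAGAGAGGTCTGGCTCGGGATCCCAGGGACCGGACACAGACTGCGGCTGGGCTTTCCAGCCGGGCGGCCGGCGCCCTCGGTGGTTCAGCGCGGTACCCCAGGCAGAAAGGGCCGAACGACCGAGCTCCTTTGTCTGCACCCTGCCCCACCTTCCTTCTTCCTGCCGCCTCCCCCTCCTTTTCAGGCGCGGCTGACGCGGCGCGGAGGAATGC
Itga5, chr15:103366792-103367041, minus strand: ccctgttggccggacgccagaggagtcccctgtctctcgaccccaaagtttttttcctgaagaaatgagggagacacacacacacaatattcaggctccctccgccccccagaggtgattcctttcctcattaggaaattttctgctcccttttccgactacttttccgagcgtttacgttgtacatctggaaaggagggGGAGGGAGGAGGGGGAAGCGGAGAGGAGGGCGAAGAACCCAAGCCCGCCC

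Peaks covered 0 of the 250 bases at Icam1, 172 at Cd44, 250 at Itgb1 and 50 at Itga5. At Itgav, whose stretch is not printed, 245 bases were covered. The promoters of Icam1, Cd44, Itgb1, Itgav and Itga5, from 250 bases before to 50 after the start, were searched on both strands for the NF-κB consensus (GGG, a purine, a pair of any bases, a pair of pyrimidines, CC) and for TGANTCA, the core of the AP-1 motif. Neither was found in these 5 windows, while 8.46% and 7.81% of 32851 RefSeq promoters held them. This says only that these letters are not in these windows, and looser forms of the NF-κB site were not searched.

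Accessibility is given as the value of the table, reads in the peak divided by a size factor of the library. Reads in peaks ranged from 9640256 to 39349111 per library, and the NSP libraries were the deepest. NSP libraries correlated with each other at a Spearman rho of 0.913 to 0.982 over all peaks. NSP replicate 1 stood apart from the other two, so the calls against NSPs were also made without it. Of 28 members called between 24 h and NSPs 26 kept their call, and Itgb1 peaks 1 (adjusted p = 0.18) and 3 (adjusted p = 0.133) lost theirs. All 32 called between 1 week and NSPs kept theirs. Among the called members, the log2 difference moved most at Itga5 peak 4, by 0.68, and by at most 0.44 at the others. Libraries collected at 72 h (TNF included) or 1 week have a tag in their names that NSP and 24 h libraries lack (10 libraries with it, 9 without), so that tag and time cannot be told apart between 72 h and 24 h or between 1 week and NSPs. The mean value of a member over all libraries ran from 19.9 to 1310, with a median of 99.7 against 86.0 for all peaks. All 53 passed the filter on low values and were among 88919 peaks tested.

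Astrocyte markers had a peak within 1 kb of the start for 6 of 8 genes, and none was listed for Aqp4 and Slc1a2. Of 4 endothelial markers none had such a peak (Pecam1, Cdh5, Cldn5 and Tek). Of 6 microglia and leukocyte markers, P2ry12 and Tmem119 had one, with a summed value of 157 to 240 in NSPs and 56.9 to 85.8 at 1 week, and Aif1, Csf1r, Cx3cr1 and Ptprc had none. The start peaks of 3 of 4 neural stem and progenitor markers summed to 3680 to 4130 in NSPs and to 1390 to 2370 in the other groups. By 1 week this came from Hes5, at 2040 to 2380 in NSPs and 142 to 206 at 1 week, while Nes (328 to 501 and 456 to 498) and Sox2 (1100 to 1420 and 1200 to 1350) overlapped between these groups. Start peaks were listed for 3 of 4 neuron markers (summed value 800 to 1410 over all groups), 1 of 4 oligodendrocyte markers (64.9 to 125) and 1 of 3 mesenchymal and pericyte markers (298 to 523). In bulk samples a lower share of cells with an open site and less opening per cell cannot be told apart.

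Differences were tested with limma-trend on log2(value + 1), and called at a Benjamini-Hochberg adjusted p under 0.05 over all peaks tested. Log2 differences are given ± SE of the fit, and values ± SD over libraries. From NSPs to 24 h of differentiation, 9 member peaks gained accessibility and 19 lost it, that is 17.0% and 35.8% of the 53. Over all peaks tested the shares were 24.2% and 23%. Between 24 h and 72 h without TNF, 3 members rose and 7 fell, against 12% and 14.3% of all peaks. Between 72 h and 1 week, 8 rose and 12 fell, against 22.5% and 16.2%. From NSPs to 1 week, 12 rose and 20 fell, against 33.7% and 33.6%.

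With TNF at 24 h, 4 members were higher and 1 was lower than without, that is 7.55% and 1.89% of the members against 7.06% and 3.53% of all peaks, so the upward share was close to that of all peaks. With TNF at 72 h, 7 were higher and 3 lower, that is 13.2% and 5.66% of the members against 6.24% and 5.55% of all peaks. The number called at 72 h rested on single libraries, with 4 called without 72 h TNF replicate 1, without 72 h TNF replicate 2 or without 72 h replicate 1, 5 without 72 h replicate 2 and 6 without 72 h TNF replicate 3, against 10 with all. None of the 53 showed a called difference between the TNF effects at 72 h and at 24 h (limma, edgeR and DESeq2 gave 0 calls each), and 5 had an unadjusted p under 0.05 in limma. Over all peaks this interaction was called for 0% in the upward and 0.00112% in the downward direction.

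Scaling bore on these splits. Libraries were also scaled to equal total reads in peaks. The numbers higher and lower then became 11 and 11 for 24 h against NSPs, and 8 and 7 for 72 h against 24 h. They became 2 and 27 for 1 week against 72 h, and 2 and 3 for TNF at 72 h. Of the 88919 peaks tested, 26111 were then higher and 12367 lower for 24 h against NSPs. The numbers were 13867 and 10505 for 72 h against 24 h, and 7966 and 30032 for 1 week against 72 h. With TNF at 72 h they were 4222 and 6602, so the members' share of risers no longer exceeded that of all peaks. Cyclic loess scaling gave 3 and 14 for 1 week against 72 h, beside 11572 and 10295 of all peaks tested. Under total-read scaling the median log2 difference of all peaks moved from -0.07 to 0.11 for 24 h against NSPs and from 0.02 to -0.31 for 1 week against 72 h. Without NSP replicate 1, 7 members rose and 20 fell at 24 h, and 13 rose and 23 fell by 1 week. Of all peaks tested, 22425 rose and 21052 fell at 24 h without that library, and 30809 and 29909 by 1 week.

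**Figure D1:**
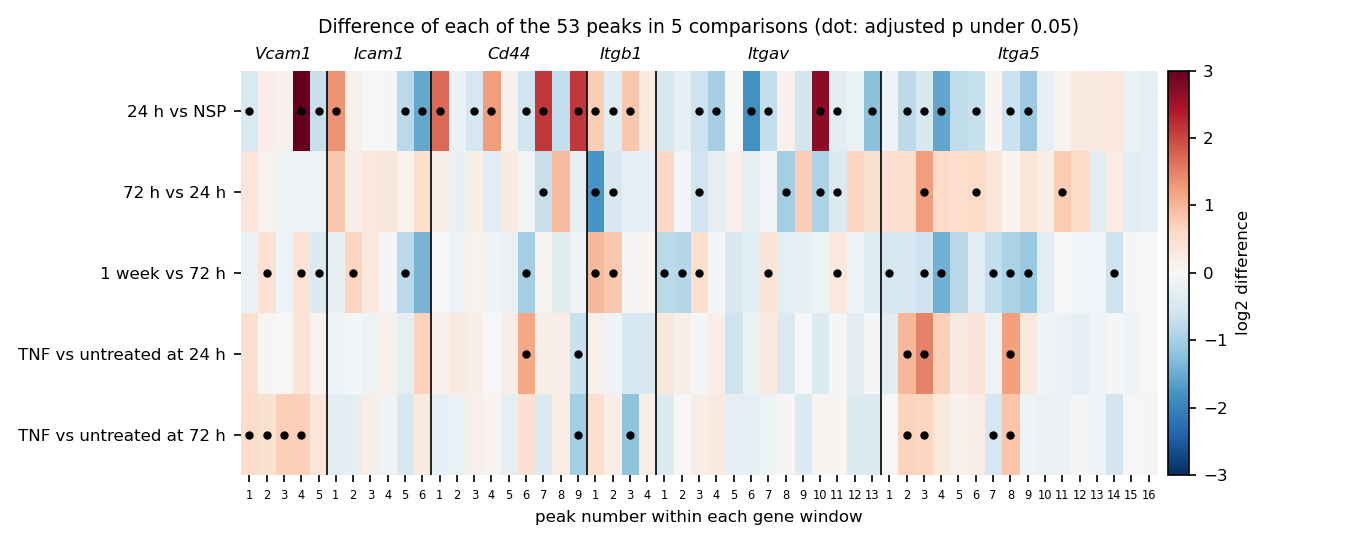
Log2 difference of each of the 53 peaks (columns, numbered within each gene) in 5 comparisons (rows), red where the first group is higher, with a dot where the adjusted p is under 0.05. Dots are spread over all genes for 24 h against NSPs, whereas with TNF they lie in Cd44 and Itga5 at 24 h and in Vcam1, Cd44, Itgb1 and Itga5 at 72 h, and none lies in Icam1 or Itgav.

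Vcam1 (chr3:116110020-116129688) held the largest rise among the 53 members between NSPs and 24 h. At peak 4 (chr3:116126545-116127045), which lies in the gene 2893 bp from its upper end, the NSP libraries gave values of 33.3, 21.7 and 23.3, and the 24 h libraries gave 211, 202 and 216. Both 72 h and 1 week libraries stayed far above NSPs, at 217, 173 and 175 and at 247, 229, 326 and 228. No differentiated library came near the NSP range. The log2 difference between 24 h and NSPs was 2.98 ± 0.17 (SE, adjusted p = 2.4e-14), and between 1 week and NSPs it was 3.26 ± 0.16 (adjusted p = 9.6e-17). Without NSP replicate 1 these were 3.17 and 3.45.

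TNF added to the accessibility of this peak at 72 h. The treated libraries gave 288, 356 and 284, all above the untreated ones, for means of 310 ± 40.5 and 189 ± 25.1 (SD, n = 3 each) and a log2 difference of 0.71 ± 0.17 (adjusted p = 0.00604). At 24 h the treated libraries gave 280, 316 and 246, also all above the untreated, but the log2 difference of 0.41 ± 0.17 did not pass (adjusted p = 0.137). The difference between the effects at both times was 0.30 ± 0.24 on the log2 scale (adjusted p = 0.813).

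At 72 h the rise with TNF ran along Vcam1. Of its 5 peaks 4 were called higher and none lower, against 6.24% and 5.55% of all peaks. In all 5 the treated libraries lay above all untreated ones. Groups without overlap, in either direction, were seen in 18 of the 53 members at 72 h and in 19 at 24 h. Their share over all peaks was not counted, so the lack of overlap cannot show whether Vcam1 stands out. The median log2 difference in Vcam1 was 0.55 against 0.03 over all peaks. At 24 h none of the 5 was called and the median was 0.11 against -0.03. Peak 2 (chr3:116113664-116114164) gave 279, 270 and 289 with TNF at 72 h and 197, 187 and 229 without (log2 difference 0.46 ± 0.15, adjusted p = 0.039). Peaks 1 and 3 were chosen after their values were seen. Peak 1 (chr3:116104791-116105291), 4979 bp beyond the lower end of the gene, had a mean of 238 ± 30.8 with TNF at 72 h and 162 ± 12.1 without (0.55 ± 0.16, adjusted p = 0.0257). At 24 h its treated libraries also lay above all untreated ones, with means of 176 ± 32.0 and 125 ± 9.83. That difference was of like size but did not pass (0.47 ± 0.16, adjusted p = 0.0598). Peak 3 (chr3:116114435-116114935) went from 105 ± 9.97 to 173 ± 9.99 with TNF at 72 h (0.71 ± 0.18, adjusted p = 0.00705), while at 24 h its means were 117 ± 19.5 without and 116 ± 12.4 with TNF.

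Peaks 3 and 4 were called at 72 h in each alternative setting and without any single library. Peak 2 lost its call under 4 of 9 alternative settings and in 5 of 6 fits without 1 library, and peak 1 under total-read scaling and in 4 of 6 such fits, with no change of sign. The summed value of the 2 microglia and leukocyte marker peaks was 107 to 131 with TNF and 111 to 153 without at 72 h, and the endothelial markers had no start peak. Of 23 peaks in the windows of those 4 endothelial genes, drawn after the values were seen, 3 rose with TNF at 24 h and none fell. At 72 h 2 rose and 1 fell. Over all peaks the shares were 7.06% and 3.53% at 24 h, and 6.24% and 5.55% at 72 h. A peak in the body of Pecam1 (chr11:106674535-106675035) gave 732, 766 and 966 with TNF at 72 h against 241, 238 and 226 (1.79 ± 0.12, adjusted p = 9.4e-11), while the other 9 peaks of its window were not called at either time. A peak in the body of Cdh5 (chr8:104107094-104107594), which encodes the endothelial cadherin, gave 298, 338 and 354 against 153, 176 and 173 (0.97 ± 0.20, adjusted p = 0.0012). Both peaks were also called higher at 24 h. The remaining peak that rose at 24 h and the one that fell at 72 h were in the Cldn5 window. They lay 17438 and 27675 bp outside that gene and were nearest to Cdc45. The part of the cell makeup in the Vcam1 result was not tested.

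Peak 5 of Vcam1 (chr3:116129201-116129701), at the upper gene end, moved the other way over time. Its values were 404, 251 and 248 in NSPs, 196, 174 and 174 at 24 h, 134, 173 and 187 at 72 h and 140, 150, 90.2 and 108 at 1 week. NSPs lay above all other libraries, and NSP replicate 1 was the highest of them. The log2 difference was -0.69 ± 0.19 from NSPs to 24 h (adjusted p = 0.00331) and -1.28 ± 0.18 to 1 week (adjusted p = 2.3e-07). With TNF it measured 195 ± 17.6 at 24 h and 209 ± 4.64 at 72 h, and neither difference from untreated cells passed (adjusted p = 0.819 and 0.243). Thus within 1 gene, peak 4 was lowest in NSPs and peak 5 highest. The summed value of the 5 Vcam1 peaks was 769 ± 56.1 in NSPs, 823 ± 30.1 at 24 h, 825 ± 46.2 at 72 h and 893 ± 46.8 at 1 week, against 968 ± 52.4 and 1210 ± 53.9 with TNF at 24 h and 72 h.

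Icam1 differed from Vcam1 in that no peak was listed on the gene itself. Its 6 member peaks were nearest to neighbours, 2 to Mrpl4, 1 to Icam4 and 3 to Icam5, and Icam4 and Icam5 encode adhesion molecules of the same family. With TNF, 7.06% of all peaks rose and 3.53% fell at 24 h, and 6.24% and 5.55% at 72 h, so most were not called. None of the 6 Icam1 peaks was called with TNF at 24 h or at 72 h, with medians of -0.08 and -0.18 on the log2 scale. The table lists peaks only, so this says nothing of reads at the Icam1 start itself. Peak 3 (chr9:21030624-21031124), 2060 bp past the end of Icam1, measured 243, 218 and 238 at 24 h and 207, 180 and 245 with TNF. Its 72 h libraries gave 322, 305 and 252 without TNF and 322 to 347 with TNF, which overlap. The 95% interval of its log2 TNF difference was -0.43 to 0.12 for 24 h, and for 72 h it was -0.09 to 0.46.

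Over time, 3 peaks of the Icam1 window gained and 2 lost accessibility from NSPs to 1 week, against 33.7% and 33.6% of all peaks, so that the share that lost it was near that of all peaks. Peak 2 (chr9:21002575-21003075), inside Mrpl4, a gene of the mitochondrial ribosome, gave 138, 176 and 155 in NSPs, 160, 217 and 232 at 72 h and 331, 298, 359 and 279 at 1 week. All 1 week libraries lay above the others, with log2 differences of 0.65 ± 0.15 from 72 h (adjusted p = 0.00095) and 1.01 ± 0.15 from NSPs (adjusted p = 6.7e-07). The first of these fell to 0.31 (adjusted p = 0.0994) under total-read scaling. Peak 1 (chr9:20990929-20991429), 24761 bp before Icam1, opened from 15.8, 12.7 and 5.32 in NSPs to 28.5, 22.1 and 33.3 at 24 h (1.34 ± 0.37, adjusted p = 0.00408). It is among the lowest members, and without NSP replicate 3 the difference was 0.91 (adjusted p = 0.0518). The peaks that lost accessibility, chosen after their values were seen, were nearest to Icam5, an adhesion gene of neurons. Peak 5 (chr9:21037425-21037925), in the Icam5 body, ranged from 80.0 to 130 in NSPs and gave 63.1, 64.6 and 71.4 at 72 h and 36.1, 42.1, 44.0 and 29.0 at 1 week (-1.52 ± 0.23 from NSPs to 1 week, adjusted p = 1.2e-06). Peak 6 (chr9:21041310-21041810) gave 19.9, 43.3 and 53.2 in NSPs and 6.17, 0.779, 8.80 and 18.2 at 1 week (-2.40 ± 0.59, adjusted p = 0.00069), with no overlap in either peak. Under cyclic loess scaling the difference at peak 6 did not pass (adjusted p = 0.0896). Summed over the 6 peaks, the value was 761 ± 58.9 in NSPs, 714 ± 41.9 and 709 ± 21.0 at 24 h without and with TNF, 895 ± 69.3 and 850 ± 35.7 at 72 h, and 1030 ± 62.8 at 1 week.

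Cd44 (chr2:102811141-102901669, minus strand) held the one member that was called lower with TNF at both times. Peak 9 (chr2:102820299-102820799) lies in the gene 81116 bp past its start. It measured 139, 118 and 143 in NSPs and rose to 590, 509 and 633 at 24 h, a log2 difference of 2.11 ± 0.13 (adjusted p = 3.8e-14). Without TNF it remained high, at 485, 457 and 515 at 72 h and 417, 488, 456 and 388 at 1 week. With TNF it reached 384, 358 and 342 at 24 h and 235, 226 and 252 at 72 h. At each time every treated library lay below every untreated one and above every NSP library. The TNF difference was -0.67 ± 0.13 on the log2 scale at 24 h (adjusted p = 0.00049) and -1.03 ± 0.13 at 72 h (adjusted p = 1.7e-06). The difference between both effects, -0.36 ± 0.18, did not pass (adjusted p = 0.673).

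The summed value of the 6 astrocyte marker start peaks was also lower with TNF, at 1550 to 1660 against 1720 to 2000 at 24 h and 1640 to 1750 against 2010 to 2180 at 72 h. The markers did not move together. The Gfap start peak ranged from 322 to 436 with TNF and from 456 to 511 without at 24 h, and from 239 to 257 against 493 to 552 at 72 h, which was most of the fall in the sum at 72 h. S100b also lay lower without overlap at 72 h (191 to 195 against 256 to 294), and Gja1 did so at 24 h (78.6 to 86.2 against 91.1 to 133). The Slc1a3 peak ranged higher with TNF at 24 h (194 to 245 against 171 to 199, overlapping), and Sox9 at 72 h (719 to 844 against 677 to 807, overlapping). Aldh1l1 overlapped at both times, as did Gja1 (175 to 192 against 172 to 245) and Slc1a3 at 72 h, and S100b and Sox9 at 24 h. The part of the cell makeup in the Cd44 result was not tested.

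Another peak of Cd44 went up with TNF. Peak 6 (chr2:102873099-102873599), 28316 bp past the start, gave 189, 205 and 272 with TNF at 24 h and 67.2, 117 and 119 without, a log2 difference of 1.16 ± 0.22 (adjusted p = 0.00058). No libraries overlapped. At 72 h it gave 121, 115 and 148 with TNF and 77.2, 111 and 90.5 without, again with no overlap (0.46 ± 0.22, adjusted p = 0.183). It was lowest at 1 week, at 44.1, 42.9, 46.2 and 47.2, with a log2 difference of -1.01 ± 0.20 from 72 h (adjusted p = 0.0003). So with TNF at 24 h, of 9 peaks in the Cd44 window, 1 rose, 1 fell and 7 did not pass. Over all peaks 7.06% rose and 3.53% fell, and 1 peak in each direction is too few to set against these shares.

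**Figure D2:**
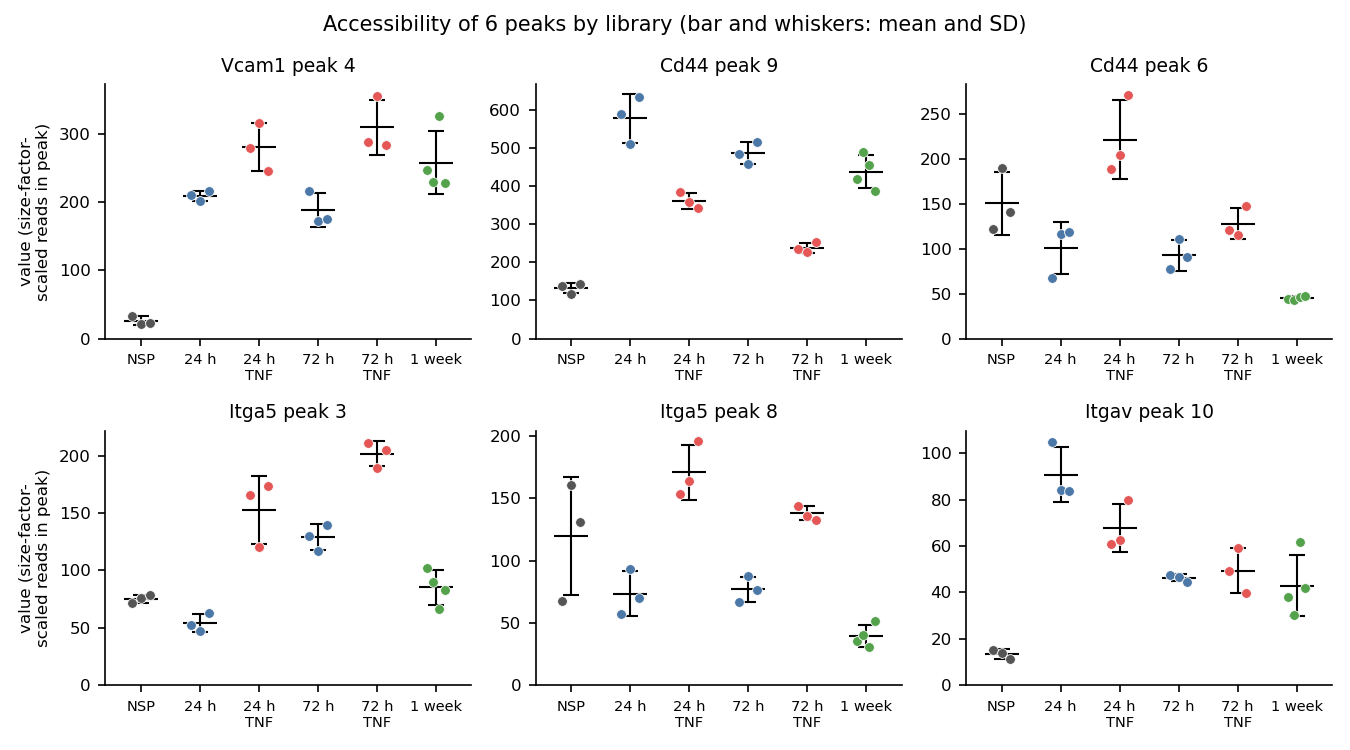
Values (reads in the peak divided by the size factor of the library) of 6 peaks in the 19 libraries by group, 1 point per library, with the mean and SD in black. Vcam1 peak 4, Cd44 peak 9 and Itgav peak 10 are lowest in NSPs, TNF-treated libraries (red) lie below untreated ones (blue) at Cd44 peak 9 and above them at Vcam1 peak 4 and at Itga5 peaks 3 and 8.

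Away from TNF, 4 of the 9 Cd44 peaks rose and 2 fell from NSPs to 24 h, against 24.2% and 23% of all peaks, so that the falling share was near that of all peaks. Peak 7 (chr2:102850008-102850508), 51407 bp past the start, went from 27.5, 38.2 and 25.3 in NSPs to 139, 131 and 128 at 24 h, and to 79.8, 78.9 and 86.7 at 72 h. These groups did not overlap, and the log2 differences were 2.12 ± 0.20 (adjusted p = 6e-10) and then -0.69 ± 0.20 (adjusted p = 0.0103). The start peak of Cd44, peak 3 (chr2:102901337-102901837), moved the other way, from 393, 463 and 571 in NSPs to 351, 319 and 314 at 24 h (-0.52 ± 0.15, adjusted p = 0.00452), a call that total-read scaling ended. Its order of groups was NSP (475 ± 89.8), 72 h with TNF (413 ± 63.7), 1 week (402 ± 66.4), 24 h with TNF (376 ± 16.8), 72 h (369 ± 44.4) and 24 h (328 ± 19.9). No neighbours in this order differed by more than their larger SD. With TNF its log2 differences were 0.20 ± 0.15 at 24 h (adjusted p = 0.48) and 0.16 ± 0.15 at 72 h (adjusted p = 0.552).

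The other Cd44 peaks that rose on differentiation, 1 and 4, were chosen after their values were seen. Peak 1 (chr2:102927997-102928497), 26578 bp before the gene, gave 15.2, 19.3 and 9.97 in NSPs and 66.0, 35.4 and 50.5 at 24 h (1.71 ± 0.30, adjusted p = 3.4e-05), and was still at 57.2 ± 9.28 at 1 week. Peak 4 (chr2:102888786-102889286), in the gene 12629 bp past the start, gave 42.1, 30.1 and 43.9 in NSPs and 75.1, 92.9 and 115 at 24 h (1.26 ± 0.23, adjusted p = 5.6e-05). In both, all 24 h libraries lay above all NSP libraries, and the means with TNF were close to those without at 24 h, 54.2 against 50.6 for peak 1 and 94.5 against 94.2 for peak 4. So the 4 peaks that rose by 24 h lay before, early in, midway along and late in the gene, while the start peak fell. Peak 5 (chr2:102878551-102879051) was nearly as accessible as the start peak, with a mean of 386 over all libraries against 394, and was called in none of the 6 comparisons. All 9 Cd44 peaks together summed to 1310 ± 108 in NSPs, 1730 ± 87.3 and 1770 ± 73.1 at 24 h without and with TNF, 1710 ± 106 and 1460 ± 125 at 72 h, and 1580 ± 133 at 1 week.

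Itgb1 (chr8:128685654-128733579, plus strand) held the most accessible member. Its start peak, peak 2 (chr8:128685352-128685852), gave 1820, 1510 and 1620 in NSPs, 1250, 1430 and 1180 at 24 h, 847, 913 and 1020 at 72 h and 1650, 1500, 1790 and 1510 at 1 week. It thus fell to its lowest level at 72 h and overlapped the NSP range at 1 week. The steps were -0.36 ± 0.11 (adjusted p = 0.00756), -0.47 ± 0.11 (adjusted p = 0.00173) and 0.80 ± 0.10 (adjusted p = 1e-06) on the log2 scale, and between 1 week and NSPs the difference was -0.03 ± 0.10 (adjusted p = 0.813). The first step did not pass under either other scaling, and the rise from 72 h to 1 week shrank to 0.46 under total-read scaling (adjusted p = 6.2e-05) and to 0.19 under cyclic loess scaling (adjusted p = 0.0347). With the latter the start peak was lower at 1 week than in NSPs (-0.21, adjusted p = 0.00488). With TNF the means were 1200 ± 51.8 at 24 h and 1060 ± 74.7 at 72 h, and neither TNF difference passed (adjusted p = 0.658 and 0.265). In the order of the groups, NSP and 1 week, and 24 h with and without TNF, differed by less than their larger SD.

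A second peak of Itgb1 was also lowest at 72 h, but unlike the start peak it did not fall from NSPs to 24 h. Peak 1 (chr8:128679879-128680379), 5525 bp before the start, gave 110, 108 and 110 at 24 h, 24.4, 34.7 and 37.0 at 72 h and 69.7, 50.7, 66.0 and 67.6 at 1 week. These groups did not overlap, and the log2 differences were -1.76 ± 0.26 (adjusted p = 1.1e-05) and 0.98 ± 0.24 (adjusted p = 0.00202). The NSP libraries gave 41.5, 77.3 and 86.4 at this peak, below those of 24 h and overlapping those of 1 week. Peak 3 (chr8:128703021-128703521), in the gene 17617 bp past the start, was the one Itgb1 peak called with TNF. It gave 17.9, 11.8 and 24.0 with TNF at 72 h and 37.3, 40.7 and 45.9 without (-1.21 ± 0.32, adjusted p = 0.011), and without 72 h TNF replicate 2 the difference was -0.96 (adjusted p = 0.0787).

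Itgav (chr2:83722303-83806917, plus strand) lost accessibility on differentiation and showed no called TNF difference at any of its 13 peaks. Of all peaks, 7.06% rose and 3.53% fell with TNF at 24 h, and 6.24% and 5.55% at 72 h, so most were not called either. From NSPs to 1 week, 8 Itgav peaks fell and 1 rose, 61.5% and 7.69% of the 13, against 33.6% and 33.7% of all peaks. The start peak, peak 3 (chr2:83724152-83724652), gave 1020, 1030 and 1100 in NSPs, 684, 791 and 602 at 24 h, 435, 433 and 501 at 72 h and 684, 564, 656 and 624 at 1 week. NSPs lay above all others. The log2 differences were -0.61 ± 0.12 (adjusted p = 8.5e-05), -0.60 ± 0.12 (adjusted p = 0.00038) and then 0.47 ± 0.11 (adjusted p = 0.00118), of which the last shrank to 0.13 and 0.02 under total-read and cyclic loess scaling and no longer passed. With TNF the start peak measured 666 ± 57.1 at 24 h and 521 ± 44.3 at 72 h, with 95% intervals of the log2 difference from -0.28 to 0.18 and from -0.04 to 0.42.

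Within Itgav, peak 6 (chr2:83740447-83740947), 16300 bp past the start, fell most by 1 week. It gave 168, 390 and 454 in NSPs against 72.3, 77.9, 28.6 and 60.0 at 1 week (-2.45 ± 0.31, adjusted p = 5.7e-08). Its NSP libraries spread widely, with replicate 1 the lowest, and without that library the difference was -2.89. Peak 10 (chr2:83787979-83788479), 63832 bp past the start, was the one Itgav peak that rose from NSPs to 24 h. It gave 15.2, 13.7 and 11.3 in NSPs and 105, 84.1 and 83.8 at 24 h (2.68 ± 0.27, adjusted p = 3.3e-09), then 47.6, 46.7 and 44.6 at 72 h (-0.95 ± 0.27, adjusted p = 0.0106). Peaks 4, 7 and 13, chosen after their values were seen, also fell from NSPs to 24 h. Peak 4 (chr2:83729304-83729804) gave 209, 373 and 433 in NSPs and 165, 155 and 168 at 24 h (-0.99 ± 0.22, adjusted p = 0.00047). Peak 7 (chr2:83742153-83742653) gave 398, 462 and 510 in NSPs, 279 ± 32.1 at 24 h and 339, 335, 423 and 348 at 1 week (-0.71 ± 0.13 to 24 h, adjusted p = 4.8e-05). Its highest 1 week library reached the NSP range, but 1 week was still called lower than NSPs (-0.33, adjusted p = 0.016). Peak 13 (chr2:83832875-83833375) gave 109, 210 and 233 in NSPs and 84.3, 73.8 and 66.5 at 24 h (-1.22 ± 0.22, adjusted p = 5.4e-05). NSP replicate 1 was the lowest NSP library at all 3. The 13 Itgav peaks together summed to 3480 ± 333 in NSPs, 2300 ± 196 and 2240 ± 65.3 at 24 h without and with TNF, 1910 ± 63.4 and 1870 ± 63.0 at 72 h, and 2100 ± 88.6 at 1 week. Peaks 11 to 13, past the end of Itgav, were nearest to Fam171b.

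**Figure D3:**
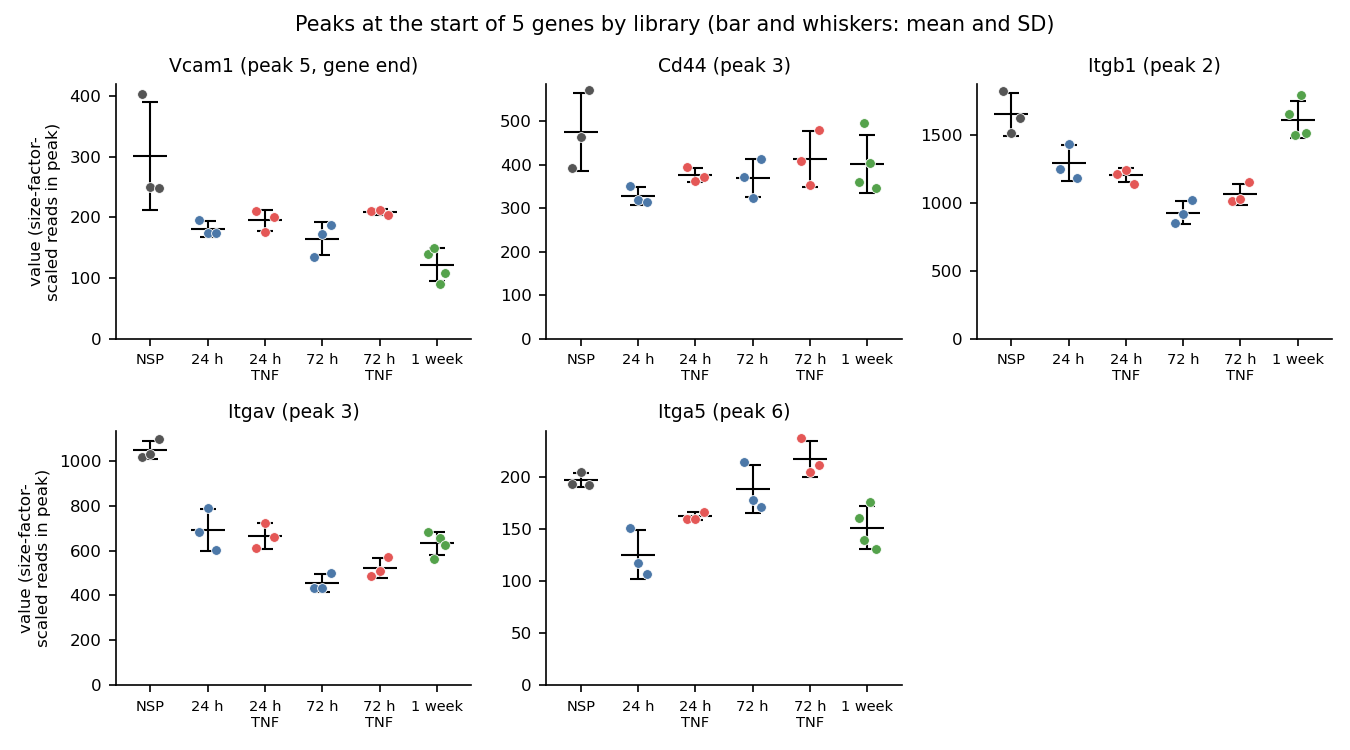
Values (reads in the peak divided by the size factor of the library) of the peak at the start of Cd44, Itgb1, Itgav and Itga5 and at the upper end of Vcam1, 1 point per library, with the mean and SD in black. Itgb1 and Itgav are lowest at 72 h without TNF, Vcam1 is lowest at 1 week, and in no panel did the TNF difference pass the test.

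Itga5 (chr15:103344286-103366791, minus strand) held 3 of the 4 members that rose with TNF at 24 h, and the same 3 were called higher at 72 h. That was 18.8% of its 16 peaks at each time, against 7.06% of all peaks at 24 h and 6.24% at 72 h. None of the 16 fell at 24 h and 1 fell at 72 h, against 3.53% and 5.55% of all peaks. Peak 3 (chr15:103378234-103378734), 11693 bp before the start, gave 166, 120 and 174 with TNF at 24 h against 52.4, 47.2 and 62.8 without, and 211, 189 and 205 against 130, 117 and 140 at 72 h. At neither time did the groups overlap. The log2 difference was 1.48 ± 0.19 at 24 h (adjusted p = 4.2e-06) and 0.64 ± 0.19 at 72 h (adjusted p = 0.0254). The difference between both effects had an unadjusted p of 0.0044 and an adjusted p of 0.485. Without TNF the peak also rose between 24 h and 72 h, by 1.25 ± 0.19 on the log2 scale (adjusted p = 2.3e-05), and at 1 week it measured 85.1 ± 15.1, near the 75.2 ± 3.62 of NSPs.

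Peaks 2 and 8 of Itga5 were chosen after their values were seen. Peak 2 (chr15:103381292-103381792), 14751 bp before the start, gave 103, 110 and 117 with TNF at 24 h against 39.8, 69.3 and 60.4 (0.99 ± 0.22, adjusted p = 0.00288), and 110, 140 and 119 against 77.2, 64.6 and 90.5 at 72 h (0.67 ± 0.22, adjusted p = 0.0437). Peak 8 (chr15:103358553-103359053), in the gene 7988 bp past the start, gave 154, 164 and 196 against 56.9, 92.9 and 70.2 at 24 h (1.23 ± 0.25, adjusted p = 0.00129). At 72 h it gave 144, 136 and 133 against 66.9, 87.3 and 76.5 (0.84 ± 0.25, adjusted p = 0.0266). For both peaks, treated libraries lay above untreated ones at both times. All 3 were called at 24 h in each alternative and without any single library. At 72 h each was lost under total-read scaling and in 4 or 5 of the 6 fits without 1 library, with the sign kept.

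The start peak of Itga5, peak 6 (chr15:103366341-103366841), did not follow them past the test. It gave 159, 159 and 166 with TNF at 24 h against 151, 117 and 107 (0.38 ± 0.16, adjusted p = 0.126) and 237, 204 and 211 against 214, 178 and 171 at 72 h (0.22 ± 0.16, adjusted p = 0.423). Over time it fell from 197 ± 6.82 in NSPs to 125 ± 23.3 at 24 h (-0.66 ± 0.16, adjusted p = 0.0009) and rose to 188 ± 22.9 at 72 h (0.59 ± 0.16, adjusted p = 0.00601). Peak 7 (chr15:103360147-103360647), in the gene 6394 bp past the start, fell with TNF at 72 h, from 282, 311 and 302 to 214, 186 and 232 (-0.51 ± 0.16, adjusted p = 0.0338), a call lost in 5 of 6 fits without 1 library.

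By 1 week, 7 of the 16 Itga5 peaks had fallen from 72 h and none had risen, against 16.2% and 22.5% of all peaks. The split of the 53 members in this comparison moved with the scaling, as given above. Peak 4 (chr15:103376858-103377358), 10317 bp before the start, gave 54.3, 251 and 202 in NSPs and 36.1, 21.8, 24.2 and 22.5 at 1 week (-2.41 ± 0.36, adjusted p = 8.1e-07), or -3.09 without NSP replicate 1. Peak 15 (chr15:103323309-103323809), the most accessible in the window at 608 ± 38.1 in NSPs and 430 ± 55.2 at 1 week (-0.51 ± 0.13, adjusted p = 0.0008), lies in Zfp385a, whose body holds peaks 13 to 16. By contrast, peaks 11 and 12 rose from NSPs to 1 week. They lie in the gene 3111 bp from its end and 1683 bp past it, and were chosen after their values were seen. Peak 11 (chr15:103347147-103347647) gave 69.5, 38.6 and 49.2 in NSPs and 104, 82.6, 88.0 and 96.5 at 1 week (0.85 ± 0.23, adjusted p = 0.00179). Peak 12 (chr15:103342353-103342853) went from 61.1 ± 2.60 in NSPs to 109 ± 12.5 at 1 week (0.81 ± 0.23, adjusted p = 0.00322). Summed over the 16 Itga5 peaks, the value was 2420 ± 302 in NSPs, 2000 ± 83.0 and 2200 ± 65.7 at 24 h without and with TNF, 2210 ± 46.6 and 2260 ± 88.6 at 72 h, and 1760 ± 82.3 at 1 week.

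**Figure D4:**
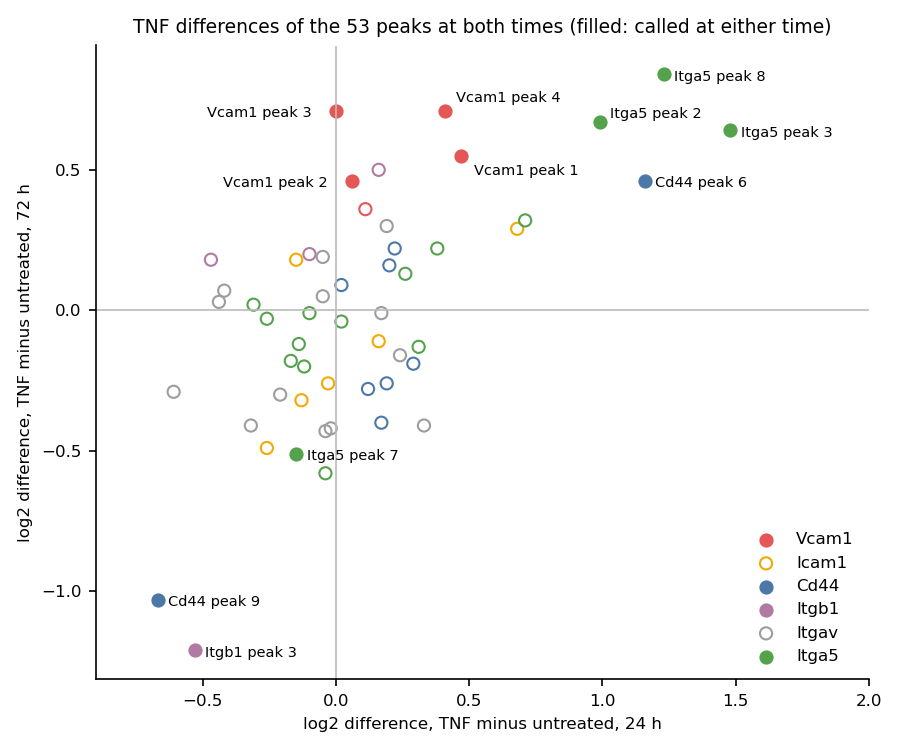
Log2 difference between TNF-treated and untreated cells at 24 h (x axis) and 72 h (y axis) for the 53 peaks, coloured by gene, filled where the peak was called at either time. Itga5 peaks 2, 3 and 8 lie at the upper right, Cd44 peak 9 and Itgb1 peak 3 at the lower left, and Vcam1 peaks 2 and 3 lie near 0 at 24 h and at 0.46 and 0.71 at 72 h.

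Over all 53 members, 18 had their highest group mean in NSPs and 17 their lowest at 1 week. With TNF at 72 h 9 were highest, of which 4 were the Vcam1 peaks other than peak 5. The largest ratio between the highest and the lowest group mean was 11.9, at Vcam1 peak 4, followed by 6.79 at Itgav peak 10 and 6.46 at Itga5 peak 4. The smallest was 1.26, at Icam1 peak 4. None of the 6 comparisons called 10 of the members, peak 4 of Icam1, peaks 2, 5 and 8 of Cd44, peak 4 of Itgb1, peaks 5, 9 and 12 of Itgav and peaks 10 and 13 of Itga5. The counts in this paragraph were not made over all peaks, so they describe the members and do not set them apart.

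Other genes of adhesion and matrix binding were counted by the same window rule, member peaks left out. With TNF at 24 h, 7.06% of all peaks rose and 3.53% fell, and at 72 h 6.24% and 5.55%. Of 112 peaks near 15 of 18 other adhesion molecules, 7 rose and 4 fell with TNF at 24 h (6.25% and 3.57%), and 9 and 6 did so at 72 h (8.04% and 5.36%). The peak with the smallest p at both times was the one in Pecam1 given with Vcam1, which at 24 h measured 786 ± 56.3 with TNF and 338 ± 23.3 without (1.21 ± 0.12, adjusted p = 9.6e-08). A peak in the window of Sele, which encodes the endothelial selectin, measured 460 ± 39.9 with TNF and 168 ± 8.58 without at 24 h (1.44 ± 0.18, adjusted p = 2.6e-06). Of 161 peaks near 16 of 17 other integrin subunits, 13 were higher and 7 lower at 24 h (8.07% and 4.35%). At 72 h 6 were higher and 10 lower (3.73% and 6.21%). A peak in the window of Itgb5, a partner subunit of that of Itgav, measured 403 ± 37.3 with TNF and 208 ± 17.6 without at 72 h (0.95 ± 0.14, adjusted p = 3.2e-05). A peak near Itgb3, another such partner, measured 107 ± 10.8 with TNF and 226 ± 22.4 without at that time (-1.07 ± 0.17, adjusted p = 7e-05). Among peaks of this list that fell at 72 h, the smallest p was at a peak in the Itgb2 window. It measured 45.8 ± 9.56 with TNF and 159 ± 22.9 without (-1.78 ± 0.26, adjusted p = 2.3e-05). Among those that rose at 24 h, a peak in the Itgb2 window also had the smallest p. There the values were 152 ± 6.71 with TNF and 65.0 ± 16.9 without (1.25 ± 0.24, adjusted p = 0.00072). Of 94 peaks near 16 genes of hyaluronan and integrin ligands, 11 were higher and 2 lower at 24 h (11.7% and 2.13%). At 72 h 6 were higher and 4 lower (6.38% and 4.26%). Among the latter genes, a peak near Spp1, which encodes the CD44 and integrin ligand osteopontin, measured 225 ± 49.7 with TNF and 113 ± 30.3 without at 24 h (1.01 ± 0.19, adjusted p = 0.0006). The lists' median log2 differences lay between -0.02 and 0.02 at 24 h, and between 0.02 and 0.11 at 72 h, against -0.03 and 0.03 over all peaks.

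Among the start peaks of 13228 other genes, those most like the Itgb1 start peak over the 19 libraries were at Arv1 and Ttc13 (Pearson r of log2 values 0.986 each) and Drg1 (0.981). For Itgav they were at Nutf2, Pip4k2a and Aff1 (0.971 each). For the Vcam1 end peak they were at Clstn2 (0.892), Rap1gap2 (0.889) and Arhgef7 (0.876), for Itga5 at Cela1 (0.808), Mab21l3 (0.807) and Mgmt (0.803), and for Cd44 at Styk1 (0.78), Efemp2 (0.769) and Baz2a (0.761). The values share libraries and their scaling, and are a description.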

How the data were processed

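Accessibility was measured by ATAC-seq in 19 libraries of 6 groups, taken from the sample titles. According to the methods and to the submitters' processing notes, the authors checked reads with FastQC, trimmed them with Trim Galore, aligned them with Bowtie2 to mm10, filtered them with SAMtools, called peaks with MACS2 and tested differential accessibility with DiffBind. Tool versions, how duplicates were handled, whether reads were shifted to the transposase cut and how the table was normalised are not given in the sources used here. The values deposited are a signal for each peak in each library. In 100% of cases it was a whole multiple of the value of 1 read (tolerance 0.1 read), so the authors' signal is reads divided by a size factor. Of values of 2 to 20 reads, 61.8% were odd.

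Peak coordinates are those of the table, and gene ends and promoters come from RefSeq (GRCm38.p6). Exons and introns were not assigned. The members, gene lists and markers were chosen with earlier results of these data known. Peaks kept by filterByExpr (minimum count 10 on recovered reads, 88919 kept, 1235 left out) were tested on log2(value + 1) with limma-trend (limma 3.58.1, R 4.3.3), all libraries sharing 1 estimate of the spread. Such differences understate changes of low peaks. Tests were two-sided with Benjamini-Hochberg adjustment over all peaks tested, and the scripts were tested on simulated data. Alternatives were edgeR 4.0.16 (quasi-likelihood, TMM) and DESeq2 1.42.0 on recovered reads, total-read and cyclic loess scaling, a pseudocount of 8, no filter, only the groups compared, replicate blocks, leaving out single libraries, and only peaks nearest to the member.

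Named peaks were, for each gene, the start peak, the peak with the highest mean, and the called peak with the smallest p in each of 6 comparisons. Others named are said to be chosen after their values were seen, or are extremes, neighbours or examples. The main fit did not pair libraries by replicate number.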

Additional observations from a re-analysis of the deposited data

Results flagged for a closer look

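In the 1 week group, the only one with 4 libraries, 27 sets of values were tested for a single library far from the rest. Of these 2 stood out, and chance gives about 1 in 20, so this number is near what chance gives. At Itga5 peak 4, 1 week replicate 1 measured 36.1 and the other libraries 21.8 to 24.2. In the sum over the 5 Vcam1 peaks, 1 week replicate 4 measured 824 and the others 912 to 922. Groups of 3 libraries were not tested in this way.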

How the results depend on the processing

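The number of members called with TNF at 72 h depended on the processing. Of 10 calls with all libraries, 5 were left under total-read scaling (2 higher, 3 lower). There were 6 with the replicate block by the number in the library name, and 4 to 8 without single libraries. Total-read scaling called 4222 of the 88919 peaks tested higher and 6602 lower, against 5551 and 4932 in the main fit. Fitting only the groups compared raised the calls between 72 h and 24 h from 10 to 16 (8 higher, 8 lower). Over all peaks it raised them from 10688 higher and 12756 lower to 12473 and 15046. Leaving out single libraries gave 5 calls throughout for TNF at 24 h, 22 to 27 for 24 h against NSPs, 9 to 14 for 72 h against 24 h, 15 to 20 for 1 week against 72 h, 30 to 36 for 1 week against NSPs and 0 for the interaction. The other alternatives kept each number of calls within 1.5 times, although the scalings changed its split. All 5 calls with TNF at 24 h were kept in each alternative that was run, against 3 of 10 at 72 h. Among all called members, the sign turned under an alternative at Itgav peak 11, for 1 week against 72 h. The cause of these changes was not tested.

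The replicate block by the number in the sample title gave 5 and 10 calls with TNF at 24 h and 72 h. Deviations of same-numbered libraries from their group means correlated by -0.042 to 0.106, and for 72 h with TNF the numbers in titles and library names differ. Whether a number marks a shared culture is not given. These correlations cannot decide it, since libraries with unlike numbers were not compared. Depth limits the lowest members, 1 of which had a value of 3 reads or fewer in a library.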
